A study of Mus musculus with 6 samples.

Results

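Growth differentiation factor 15 (Gdf15) was followed as a single gene through the prostate transcriptomes of irradiated Trp53 R270H mice. It was identified by its symbol and is 1 of the 47719 gene identifiers measured in each mouse (ENSMUSG00000038508). RNA from the whole prostate gland of 6 B6.129S4-Trp53tm3.1Tyj/J mice was sequenced, with 2 wildtype mice (Trp53+/+, mice 39 and 41), 2 heterozygous mice (Trp53R270H/+, mice 37 and 40) and 2 homozygous mice (Trp53R270H/R270H, mice 47 and 49). Mice are named by the numbers in their labels. Each was irradiated over the whole body with 5 Gy at an age of about 3 months, and its prostate was taken 6 h afterwards. The mutation is carried in the germline, and no unirradiated mouse was analysed here, so every value is a level after irradiation and not a response to it. Because whole glands were sequenced, fewer cells of a type and less RNA per cell cannot be told apart. The study singled out Gdf15 on these same mice, so its direction here is not independent evidence.

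Gdf15 encodes a secreted, distant member of the TGF-β superfamily that is made by many tissues under stress. It is a textbook target of p53, the transcription factor that stabilizes after DNA damage and switches on genes for cell cycle arrest, repair and apoptosis, among them Cdkn1a. It is also a target of the integrated stress response, in which the factors ATF4 and CHOP (encoded by Ddit3) induce genes for amino acid supply and redox balance. The circulating protein acts on the hindbrain through the receptor GFRAL and its partner RET, and lowers appetite. R270H is a substitution in the DNA-binding domain of mouse p53. The comparisons below address how the level of Gdf15 relates to the number of mutant alleles, and whether it moved with p53 targets or with stress response genes.

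Gdf15 lies on chromosome 8 of GRCm38 from 70629393 to 70632456, on the minus strand, and no other annotated gene overlaps it. GENCODE gives it 2 transcripts. The shorter one has 2 exons, at 70631333 to 70632095 and 70629393 to 70630174. The longer one has 3 exons, at 70632150 to 70632456, 70631333 to 70631624 and 70629394 to 70630174. A stretch of 236 bases just upstream of the longer transcript's RefSeq start, at chr8:70632471-70632706 of GRCm38.p6 on the minus strand, is shown from 5′ to 3′ because it is part of a window in which p53-related letters were searched. The capitals mark the 2 CATG cores, at bases 124 to 127 and 153 to 156 of the stretch. The p53 target Cdkn1a is set beside it, with 100 bases just upstream of its first RefSeq start at chr17:29090876-29090975 on the plus strand, where the capitals mark 2 matches to the p53 half-site.
Gdf15: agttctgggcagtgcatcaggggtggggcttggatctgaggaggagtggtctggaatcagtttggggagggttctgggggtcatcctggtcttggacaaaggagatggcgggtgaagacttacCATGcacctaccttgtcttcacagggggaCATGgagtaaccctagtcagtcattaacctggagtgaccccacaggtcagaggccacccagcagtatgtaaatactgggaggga
Cdkn1a: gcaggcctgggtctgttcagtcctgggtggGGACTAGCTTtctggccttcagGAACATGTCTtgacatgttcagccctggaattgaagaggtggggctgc

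Windows of 250 bases before to 50 bases after each start were compared between genes on both strands. The 10-letter p53 half-site matched in 8.36% of the 32817 RefSeq windows and in 0 of the 2 windows of Gdf15. On a per-gene basis it matched in 10 of the 23 p53 target genes of the list below that have a window, against 9.55% of all genes. The bare core CATG, which is contained in many half-sites, was in 61.1% of windows and in 1 of the 2 windows of Gdf15. Per gene it was in 10 of the same 23 p53 target genes, against 64.8% of all genes, so it does not mark the p53 targets here. The CCAAT-enhancer binding protein and ATF response element, searched as TGATGNAA, was in 3.97% of windows, in 0 of the 2 windows of Gdf15 and in 8 of the 21 stress response genes of the list below that have a window. The E-box CACGTG was in 7.15% of windows and in 1 of the 2 windows of Gdf15. The AP-1 site TGANTCA, the GC box GGGCGG, the half-site TGACG of the cyclic AMP response element, the EGR1 site GCGNGGGCG and the TATA box TATAAA were in 7.81%, 35.6%, 20.8%, 5.56% and 13.6% of windows and in 0 of the 2 windows of Gdf15. These are letter matches in short windows. A missing match says only that the letters are not there.

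Some marker genes differed between mice in ways the labels do not give. Probasin (Pbsn), a luminal secretory protein, was at 257 FPKM (fragments mapped to a transcript, scaled by its length and by the mapped fragments of the library) in homozygous mouse 47 and between 7329 and 11512 FPKM in the other 5 mice. The summed level of the 8 luminal markers was 1435 FPKM in mouse 47 and 13834 to 23649 FPKM in the others. Mouse 47 was listed at 0 for the seminal vesicle proteins Svs2, Svs4 and Svs5, while Svs1 reached 9136 FPKM. Wildtype mouse 39 stood apart in another way. Its 7 seminal vesicle markers summed to 3488 FPKM, against 35187 to 59466 FPKM in the others. The summed FPKM per mouse was 518671 to 636407, 13452 to 13827 genes reached 1 FPKM, and the number of fragments relative to mouse 39, read from the lowest values, was 0.79 to 1.07. FPKM hold no fragment counts, so how precisely any 1 value was counted is not known. The transcript of the mutated gene itself, Trp53, was at 17.3 and 21.4 FPKM in wildtype, 20.9 and 19.6 FPKM in heterozygous and 20.8 and 18.3 FPKM in homozygous mice, with ranges that overlap between genotypes.

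The level of Gdf15 lay in the order of the number of R270H alleles, highest with none. It was 30.8 FPKM in wildtype mouse 39 and 61.8 FPKM in wildtype mouse 41. In heterozygous mice it was 22.1 FPKM in mouse 37 and 10.8 FPKM in mouse 40. In homozygous mice it was 2.20 FPKM in mouse 47 and 2.48 FPKM in mouse 49. The genotypes did not overlap: the lowest wildtype value was 1.40 times the highest heterozygous value, and the lowest heterozygous value was 4.36 times the highest homozygous value. Among all genes ranked by FPKM within a mouse, Gdf15 stood at places 2578 and 1272 in the wildtype pair, 3661 and 6262 in the heterozygous pair, and 11756 and 11623 in the homozygous pair. It was thus still measured in homozygous mice, well above 0, both in mouse 47, whose luminal markers were low, and in mouse 49.

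**Figure D1:**
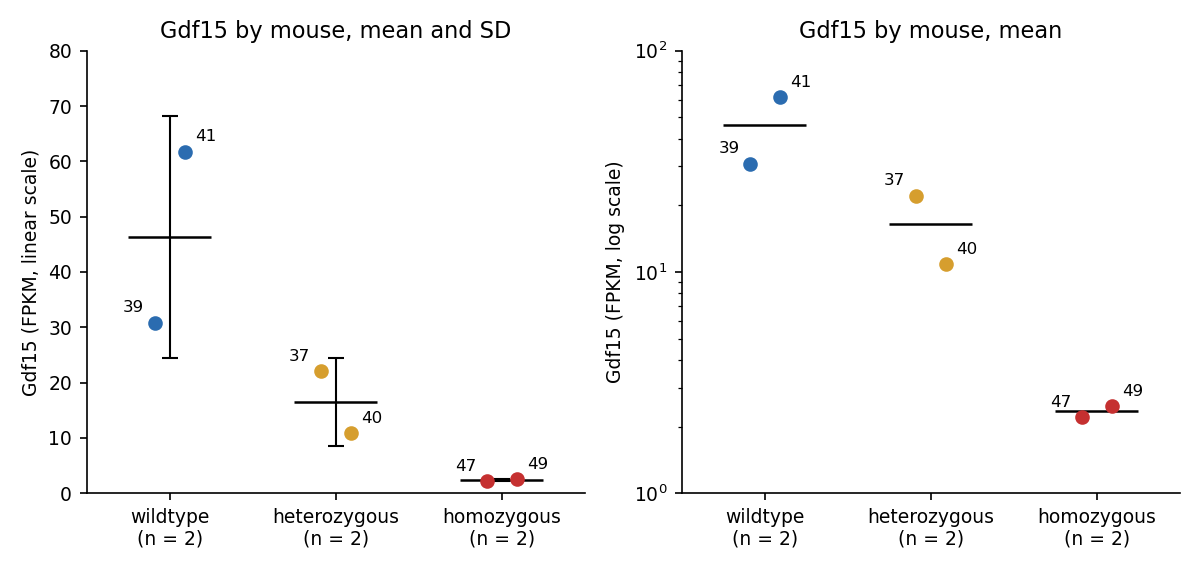
Gdf15 FPKM in each of the 6 mice on a linear axis with the mean and SD of each genotype (left) and on a log axis with the mean (right), points labelled by mouse number. The wildtype mice sit at 30.8 and 61.8 FPKM, the heterozygous mice at 10.8 and 22.1 FPKM and the homozygous mice at 2.20 and 2.48 FPKM, with no overlap between genotypes.

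The mean was 46.3 FPKM ± 21.9 (SD, n = 2) in wildtype, 16.4 FPKM ± 7.96 (SD, n = 2) in heterozygous and 2.34 FPKM ± 0.196 (SD, n = 2) in homozygous mice. Heterozygous mice thus held 35.5% and homozygous mice 5.06% of the wildtype mean. On the log2(FPKM + 0.1) scale used for all tests, Gdf15 fell by 4.17 in homozygous against wildtype mice (standard error 0.44, 95% confidence interval -5.24 to -3.09, adjusted p = 0.0399 from limma). This is a fold of 17.9, with an interval of 8.50 to 37.9. Of the 13818 genes tested in this comparison, 36 were called lower, or 0.261%, and 17 were called higher, or 0.123%. With quantile normalization the split was 22 lower and 20 higher. The call is close to the threshold, and the adjusted p was between 0.0495 and 0.234 when 1 mouse was left out, with the call kept only without wildtype mouse 41. It was 0.233 without mouse 47, 0.0640 without mouse 49, 0.125 without mouse 39, 0.140 without mouse 37 and 0.144 without mouse 40, while the log2 fold change stayed between -4.67 and -3.67.

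The step from wildtype to heterozygous mice was -1.49 on the log2 scale (standard error 0.44, 95% confidence interval -2.57 to -0.41), a fold of 2.81, and did not pass the adjustment over all genes (unadjusted p = 0.0151, adjusted p = 0.517 from limma). No gene was called in this comparison in either direction (0.00%), and 949 genes, or 6.87%, had an unadjusted p under 0.05. The step from heterozygous to homozygous mice was -2.67 (standard error 0.44, 95% confidence interval -3.75 to -1.60), a fold of 6.39, and did not pass either (unadjusted p = 0.0010, adjusted p = 0.601 from limma), in a comparison that called 2 genes in all (0.0145%). The moderated F-test across the 3 genotypes gave an adjusted p of 0.0897 with limma and called 14 genes (0.101%). The 2 steps differ in size as listed, but the heterozygous level was not shown to depart from the log2 midpoint of the other genotypes: it lay 0.59 above it (standard error 0.38, 95% confidence interval -0.34 to 1.53, unadjusted p = 0.170, adjusted p = 0.980 from limma). This value depends on single mice: it was 0.34 without mouse 39, 0.84 without mouse 41 (unadjusted p = 0.0496), 0.08 without mouse 37 and 1.10 without mouse 40, with adjusted p-values of at least 0.882. In FPKM the heterozygous mean of 16.4 lay between the geometric midpoint of 10.2 FPKM and the arithmetic midpoint of 24.3 FPKM.

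Fitted as a slope, Gdf15 fell by 2.08 on the log2 scale per R270H allele (standard error 0.24, 95% confidence interval -2.65 to -1.52, adjusted p = 0.0315 from limma), a fold of 4.24 per allele. The slope called 46 genes lower, or 0.333%. Leaving out 1 mouse kept the direction with slopes of -2.38 to -1.95 and kept the call only without heterozygous mouse 37. The adjusted p was 0.0511 without mouse 39, 0.0947 without mouse 41, 0.0812 without mouse 40, 0.155 without mouse 47 and 0.0906 without mouse 49. An exact two-sided permutation test of the slope over the 90 assignments of the 6 mice gave p = 0.0222, the smallest it can give, reached by 2 of 90 assignments. With 2 mice against 2 an exact test cannot go below 0.333, so pairs of genotypes were not tested that way. A fall in the order of allele number without overlap was shared by 688 of the 13818 genes, or 4.98%, and a rise in that order by 532, or 3.85%.

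Set against genes of similar level, Gdf15 combined a very large genotype difference with a wide spread within 2 of the genotypes. There were 1535 tested genes with a mean of 17.4 to 27.1 FPKM, which runs from 0.8 times its own mean of 21.7 FPKM to that mean divided by 0.8. The median change of these genes in homozygous against wildtype mice was -0.10 on the log2 scale, with 5% of them under -0.61 and 5% above 0.56. Gdf15 had the second largest fall. The gene ahead of it, a predicted gene without a name, was listed at 0 in mouse 47 and at 15.7 FPKM in mouse 49. Without mouse 47, or with a pseudocount of 1, Gdf15 had the largest fall, and without mouse 49 it was at place 4. It also had the second largest fall in heterozygous against wildtype mice, and 103 of the 1535 genes, or 6.71%, fell in the order of allele number.

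Among the next largest falls at this level were 3 named genes. Sesn2, a p53-induced and stress-induced regulator of mTORC1 signalling, fell by 2.59 (adjusted p = 0.0039 from limma), from 35.9 and 35.7 FPKM in wildtype mice to 5.98 and 5.74 FPKM in homozygous mice. Its adjusted p was 0.0535 without mouse 47. Aen, an exonuclease induced by p53 in apoptosis, fell by 2.49 (adjusted p = 0.0047), from 51.5 and 45.4 FPKM to 8.96 and 8.12 FPKM. Its adjusted p was 0.0701 without mouse 37, 0.0659 without mouse 40 and 0.0535 without mouse 47. Nlrp10, an NLR-family gene, was at -2.55 (adjusted p = 0.355 from limma) with 0.941 FPKM in mouse 47 and 20.2 FPKM in mouse 49. Its value thus rests on mouse 47. Gdf15 is unlike Nlrp10 in that mice 47 and 49 differed by 0.16 on the log2 scale, a difference at place 804 of 1535, near the middle of the genes of its level.

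**Figure D2:**
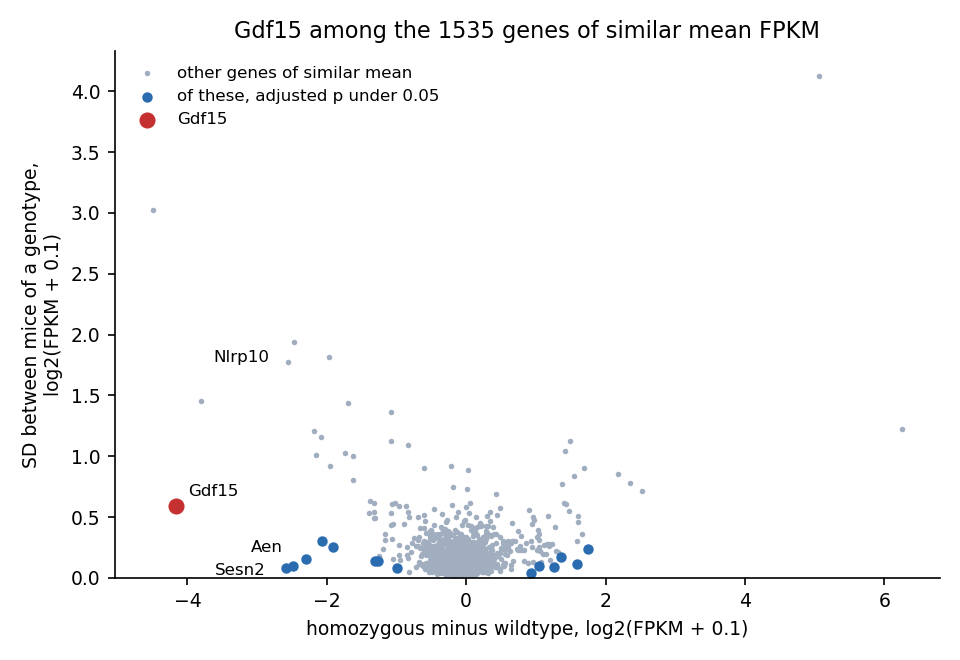
Each point is 1 of the 1535 genes with a mean of 17.4 to 27.1 FPKM, with the change in homozygous against wildtype mice across and the standard deviation between mice of a genotype upward, both on the log2(FPKM + 0.1) scale. Gdf15 lies at -4.17 and 0.59, further left than the called genes Sesn2 and Aen at -2.59 and -2.49 and above them in spread.

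The spread between mice of a genotype was the second feature of Gdf15. Mouse 41 had 2.0 times the level of mouse 39 among wildtype mice, and mouse 37 had 2.04 times that of mouse 40 among heterozygous mice. The coefficient of variation was 47.2% for the wildtype pair, 48.4% for the heterozygous pair and 8.38% for the homozygous pair. With 2 mice a genotype these spreads are single differences and were not tested. Among the 1535 genes of similar mean, the difference within wildtype was the 38th largest and that within heterozygous the 6th largest. The median gene differed by 0.16 and 0.15 on the log2 scale in these pairs, against 1.00 and 1.02 for Gdf15. A value 1.9-fold or more higher in mouse 41 than in 39, and likewise in mouse 37 than in 40, was found for 89 of all 13818 tested genes, Gdf15 included, or 0.644%.

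Other p53 targets were set beside Gdf15. In a list of 32, 30 passed the filter of a mean of 1 FPKM. Of these, 16, or 53.3%, were called lower in homozygous against wildtype mice, beside 0.261% of all tested genes. None was called higher, beside 0.123%. The median change was -1.38 against -0.04 over all tested genes and -4.17 for Gdf15. In heterozygous against wildtype mice 0 of the 30 were called, where no tested gene was called at all. In homozygous against heterozygous mice 1 was called, lower, of 2 genes called in all. The count called lower in homozygous against wildtype mice depended on which mouse was left out, and not on mouse 47 alone. The 22 members that fell in the order of allele number were 73.3% of the 30, beside 4.98% of all genes. Only Eda2r, a receptor of the TNF receptor family, was ahead of Gdf15 at a pseudocount of 0.1, from 9.83 and 8.76 FPKM in wildtype to 0.299 and 0.544 FPKM in homozygous mice, a fall of 4.21 (adjusted p = 0.0128 from limma), which was 0.133 without mouse 39, 0.124 without mouse 37, 0.134 without mouse 40 and 0.0535 without mouse 47. This order depends on the setting. With a pseudocount of 1 Eda2r was at -2.86, Gdf15 at -3.74 and Cdkn1a at -3.83, and without mouse 47 Eda2r was at -3.86 and Gdf15 at -4.08.

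Cdkn1a, the cyclin-dependent kinase inhibitor p21, was the closest of the large-amplitude p53 targets to Gdf15. It was at 109 and 101 FPKM in wildtype, 40.5 and 41.4 FPKM in heterozygous and 6.70 and 6.17 FPKM in homozygous mice, a fall of 4.0 in homozygous against wildtype mice (adjusted p = 0.00075 from limma) that stayed called without any 1 mouse. FPKM are per length, so the levels can be set side by side: Gdf15 stood at 0.283 (mouse 39) and 0.614 (mouse 41) of the level of Cdkn1a among wildtype, 0.545 (mouse 37) and 0.261 (mouse 40) among heterozygous and 0.329 (mouse 47) and 0.402 (mouse 49) among homozygous mice. These ratios overlap between all 3 genotypes, whereas both levels were separated by genotype. Psrc1, a spindle protein, fell by 3.47 (adjusted p = 0.0126) and Gtse1, a regulator of p53 in G2, by 3.11 (adjusted p = 0.0175). Both calls were lost without mouse 39, 37, 40 or 47, with adjusted p-values of up to 0.130 and 0.162. In heterozygous against wildtype mice no member had a more negative value than the -1.49 of Gdf15.

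Few p53 targets differed in the direction of Gdf15 within both the wildtype and the heterozygous pair. Of the 30 members, 25 were lower in mouse 41 than in mouse 39, where Gdf15 was 2.0-fold higher and the median of all tested genes was 0.05 higher on the log2 scale, and 0 had as large a difference within wildtype or within heterozygous mice. Cdkn1a differed by -0.11 on the log2 scale between mice 41 and 39 and by -0.03 between mice 37 and 40. Only 5 members, or 16.7%, were higher in mouse 41 than in 39 and in mouse 37 than in 40, beside 35.5% of all tested genes. Within homozygous mice 14 of the 30 were higher in mouse 49 than in mouse 47, as Gdf15 was.

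Most integrated stress response genes differed in the direction of Gdf15 within the wildtype and within the heterozygous pair, but not within the homozygous pair. Of 23 genes in the list, 21 passed the filter, and 16 of these, or 76.2%, were higher in mouse 41 than in 39 and in mouse 37 than in 40. A difference of at least 1.5-fold within wildtype together with a higher value in mouse 37, by any amount, was found in 12 members, or 57.1%, beside 4.91% of all tested genes. With at least 1.5-fold asked for in both pairs, only 1 of the 21 members remained, where Gdf15 was 2.0-fold or more higher in both. The share of all tested genes at that stricter threshold is not given here. Asparagine synthetase (Asns) was at 66.5 and 134 FPKM in wildtype, 101 and 76.4 FPKM in heterozygous and 60 and 59.5 FPKM in homozygous mice. Atf4, the central factor of the response, was at 108 and 196 FPKM, 146 and 122 FPKM, and 121 and 98.5 FPKM in the same order. In both, as in Gdf15, the higher mouse was 41 in wildtype and 37 in heterozygous mice. Within homozygous mice Gdf15 was 0.16 higher on the log2 scale in mouse 49 than in mouse 47. Of the 21 members, 6 were higher in mouse 49, and the median difference was -0.13, beside 0 over all tested genes.

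Within wildtype mice the size of the difference was also shared, but not within heterozygous mice. The ratio of Gdf15 to Asns was 0.463 in mouse 39 and 0.460 in mouse 41, and that to Atf4 was 0.285 and 0.315. In heterozygous mice the ratio to Asns was 0.218 and 0.142, and in homozygous mice 0.0367 and 0.0417. A set of 7 members exceeded Gdf15 in how much higher mouse 41 was than mouse 39, with Aldh1l2, a mitochondrial folate enzyme, at 2.02 and Chac1, a glutathione-degrading enzyme, at 1.91 on the log2 scale (both chosen after their values were seen), while 0 of the 21 exceeded it in mouse 37 against mouse 40. Nupr1 went the other way, from 647 FPKM in mouse 39 to 230 FPKM in mouse 41.

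Between genotypes 1 stress response gene was called. The list's median change in homozygous against wildtype mice was -0.29, and the member called of 21 was Sesn2, which is also in the p53 list. Over all tested genes 0.261% were called lower and 0.123% higher. Slc7a5, an amino acid transporter, was at -1.02 (adjusted p = 0.224 from limma), Vldlr at 0.91 (adjusted p = 0.203), Phgdh, the first enzyme of serine synthesis, at -0.80 (adjusted p = 0.164), Asns at -0.66 (adjusted p = 0.359) and Atf3 at -0.64 (adjusted p = 0.300). In the order of allele number 1 member fell, again Sesn2, or 4.76% of the 21, beside 4.98% of all tested genes. The causes of the differences between mice of a genotype were not tested.

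**Figure D3:**
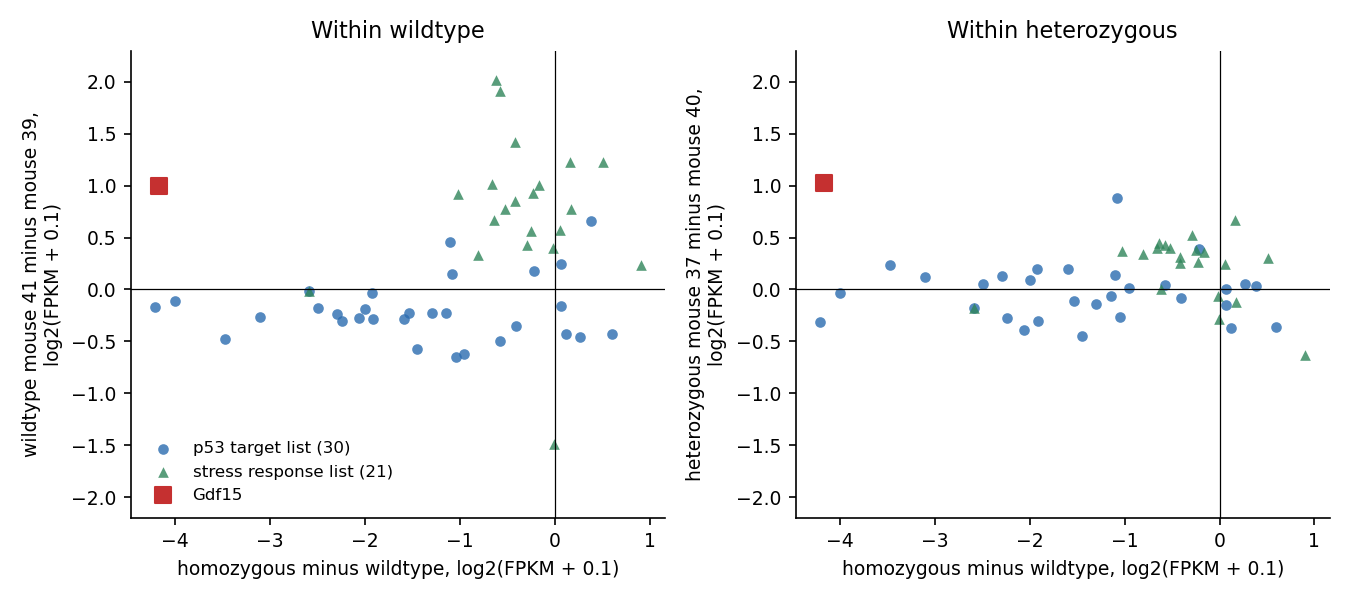
Change in homozygous against wildtype mice (across) and difference between the mice of a genotype (upward; left, wildtype mouse 41 minus 39; right, heterozygous mouse 37 minus 40), all on the log2(FPKM + 0.1) scale, for 30 p53 targets (circles), 21 integrated stress response genes (triangles, with Sesn2 in both lists) and Gdf15 (square). Gdf15 lies at -4.17 across with the p53 targets of largest change and at 1.00 upward in wildtype, among the stress response genes; at 1.02 within heterozygous mice it lies above both lists.

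**Figure D4:**
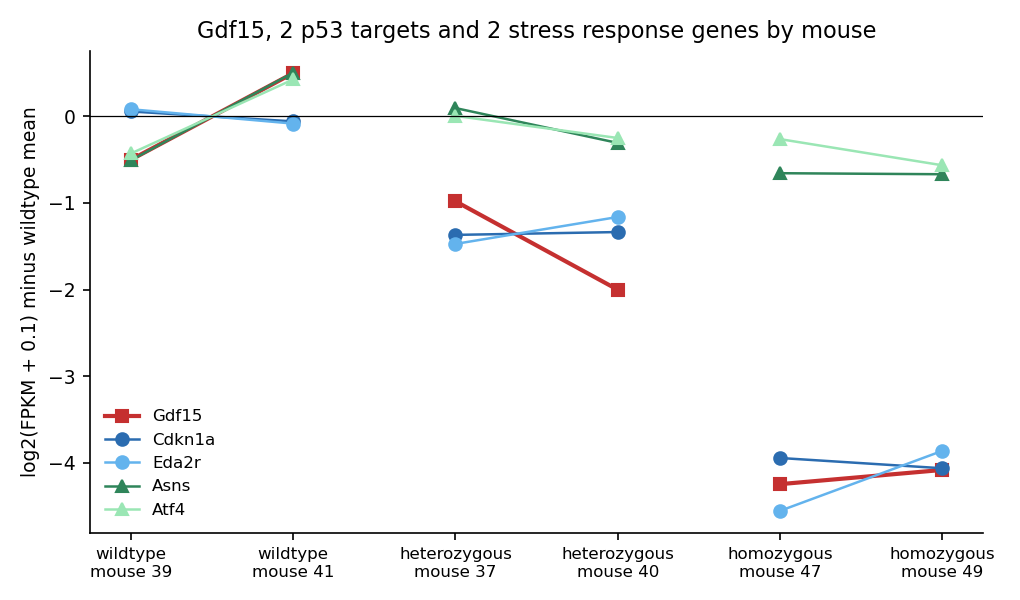
Level in each mouse relative to the wildtype mean, on the log2(FPKM + 0.1) scale, for Gdf15 (squares), the p53 targets Cdkn1a and Eda2r (circles) and the stress response genes Asns and Atf4 (triangles), with lines joining mice of 1 genotype. Gdf15 overlies Asns and Atf4 in the wildtype mice and lies with Cdkn1a and Eda2r, near -4, in the homozygous mice.

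Summed levels of cell type markers also differed between the mice. The summed level of the 8 luminal prostate markers was 21787 and 23649 FPKM in wildtype, 17737 and 15369 FPKM in heterozygous and 1435 and 13834 FPKM in homozygous mice, an order like that of Gdf15, with 0 of 8 members called. Mice 47 and 49 lay far apart in that sum and differed by 1.13-fold in Gdf15. The 8 skeletal muscle markers summed to 1450 and 2157 FPKM in wildtype and 4090 to 4925 FPKM in the other mice, with 0 of 8 called. The 7 seminal vesicle markers were all higher in mouse 41 than in mouse 39, with sums of 49194 and 3488 FPKM. The sums were 56900 and 55693 FPKM in mice 37 and 40 and 59466 and 35187 FPKM in mice 47 and 49. Mouse 39 was thus far below all others. Of the 7 markers, 5 were also higher in mouse 37 than in mouse 40. The 8 macrophage markers summed to 163 to 168 FPKM in wildtype, 217 to 258 FPKM in heterozygous and 101 and 260 FPKM in homozygous mice, with 0 of 8 called. Of the seminal vesicle markers 1 of 7 was called, Svs2, which was listed at 0 in both homozygous mice (adjusted p = 0.0477 from limma, called lower) and at 256 and 11018 FPKM in wildtype mice. The pseudocount sets the size of that change. Svs2 also passed the filter only through the wildtype and heterozygous mice, so its p-value is no support for a fall. Over all tested genes 0.261% were called lower and 0.123% higher in homozygous against wildtype mice. The part of these cell types in the values of Gdf15 was not tested.

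The genes with the profile most like that of Gdf15 over the 6 mice depend on the measure. By Pearson correlation of log2(FPKM + 0.1), the 10 nearest were Cdk2ap1 (r = 0.998), Arl8a, Rnf181, Tor2a, Rangap1, Zfp598, Azin2, Slc39a7, Igkv17-121 and 1 predicted gene, with r of at least 0.989. Most have a much smaller amplitude: Cdk2ap1 was between 19.0 and 22.7 FPKM in all mice, Rnf181 between 102 and 168 FPKM, and the median change of the 10 in homozygous against wildtype mice was -0.53. With 6 mice such values are common, since 733 of the 13817 other genes, or 5.31%, had r above 0.9.

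By the root mean square difference of profiles centred on their mean, which also asks for the same amplitude, the 5 nearest were an identifier listed under the symbol Tgfb1i1 (0.314 on the log2 scale), the immunoglobulin segment Igkv17-121 (0.322), Cdkn1a (0.456), Xlr3a (0.507) and Eda2r (0.542), against a median of 1.77 over all other genes. Igkv17-121 was at 1.79 and 2.80 FPKM in wildtype and 1.17 and 0.72 FPKM in heterozygous mice and was listed at 0 in both homozygous mice, so its likeness depends on the pseudocount. The Tgfb1i1 identifier was at 1.82 and 2.42 FPKM in wildtype, 1.46 and 0.391 FPKM in heterozygous and 0.0032 FPKM or lower in both homozygous mice, so its likeness depends on the pseudocount in the same way. Both of these genes passed the filter on mean FPKM only through the wildtype and heterozygous mice, so their falls are in part a result of that selection. Xlr3a was at 5.34 and 5.84 FPKM in wildtype, 4.12 and 0.984 FPKM in heterozygous and 0.354 and 0.524 FPKM in homozygous mice, and was not called (adjusted p = 0.118 from limma). Of the 5, Cdkn1a was the only gene with a mean above that of Gdf15.

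The receptor side of the pathway was nearly silent in the gland or did not pass the test. Gfral, the receptor itself, was at 0.21 FPKM or lower in all 6 mice and did not pass the filter. Of the other 10 genes of receptor and processing, all passed the filter and 0 were called between any genotypes. Calls were rare among all tested genes too, at 0.261% lower and 0.123% higher in homozygous against wildtype mice, so 0 of 10 says little. Ret, the signalling partner, was at 5.26 and 4.27 FPKM in wildtype and 6.63 and 6.55 FPKM in homozygous mice, a log2 change of 0.47 (adjusted p = 0.272 from limma). Mmp14, a membrane protease reported to cut GFRAL, was at 0.42 (adjusted p = 0.211). The related co-receptors Gfra4 and Gfra1 were at 0.42 and 0.27, and the proprotein convertases Pcsk6 and Pcsk5, enzymes of the family that cut TGF-β precursors, were at 0.24 and 0.16.

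Among the other ligands of the TGF-β superfamily, none was called. Of 32 ligands, 13 passed the filter, 0 were called between any genotypes, and the median change in homozygous against wildtype mice was 0.17. A count of 0 among 13 is near the share over all tested genes, which was 0.261% lower and 0.123% higher in that comparison. Gdf2, Inhbe and Lefty2 were listed at 0 in all mice. The largest values were those of Bmp3, at 0.642 and 0.828 FPKM in wildtype and 5.72 and 2.60 FPKM in homozygous mice (2.25, adjusted p = 0.111 from limma), and of Bmp7, at 24.7 and 30.9 FPKM in wildtype and 6.76 and 16 FPKM in homozygous mice (-1.40, adjusted p = 0.190). Without mouse 47 they were at 1.70 and -0.78, and without mouse 49 at 2.81 and -2.01. The adjusted p was then 0.0452 and 0.0460, from mouse 47 alone, with its spread assumed to be that of the other genotypes. Myostatin (Mstn), a muscle growth inhibitor, was at 2.68 and 4.95 FPKM in wildtype and 8.11 and 10.1 FPKM in homozygous mice (1.29, adjusted p = 0.155), beside the higher skeletal muscle markers of those mice.

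Factors known to act on the Gdf15 gene were not called either. Of 14 such factors, 13 passed the filter and 0 were called between any genotypes. Since 0.261% of all tested genes were called lower and 0.123% higher in homozygous against wildtype mice, 0 of 13 says little. The median change of the 13 in that comparison was -0.25. Egr1, an immediate early factor, was at 12.2 and 21.9 FPKM in wildtype and 5.77 and 15.6 FPKM in homozygous mice, a value of -0.78 (adjusted p = 0.459 from limma) that was -0.07 without mouse 47, -1.49 without mouse 49 and -0.36 without mouse 41. Trp63, the p53 relative of basal epithelium, was at 0.69 (adjusted p = 0.153) and Hif1a, the hypoxia factor, at 0.48 (adjusted p = 0.215). Atf4 and Nfe2l2, the oxidative stress factor, were both at -0.41. Of the 13, 8 were higher in mouse 41 than in 39 and in mouse 37 than in 40, beside 35.5% of all tested genes.

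Among 20 other secreted stress cytokines and growth factors, 9 passed the filter and 0 were called in homozygous against wildtype mice. The share of all tested genes called there was 0.261% lower and 0.123% higher. Leukaemia inhibitory factor (Lif), itself a known p53 target, had the largest value, at 2.77 and 2.73 FPKM in wildtype, 0.792 and 0.842 FPKM in heterozygous and 0.410 and 0.309 FPKM in homozygous mice. Its change of -2.64 missed the threshold (adjusted p = 0.0614 from limma) and passed it with a pseudocount of 1 or 0.01, without the intensity trend and with robust moderation (adjusted p = 0.0203 to 0.0499). Lif passed the filter only through the wildtype mice, since the other 4 mice were all under 1 FPKM, so these p-values are no support for its fall. Unlike Gdf15, Lif differed by only -0.02 on the log2 scale between mice 41 and 39. Il18 was at -0.95 (adjusted p = 0.280).

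On the chromosome, Gdf15 has 45 annotated genes within 300 kb, of which 41 are in the files and 31 passed the filter. Pgpep1, which encodes pyroglutamyl peptidase, is the next gene to the right at 14 kb, at 70646435 to 70660388 on the same strand. It was the 1 neighbour of the 31 called in homozygous against wildtype mice, beside 0.261% of all tested genes called lower. It was at 12.9 and 10.8 FPKM in wildtype, 8.66 and 9.25 FPKM in heterozygous and 4.45 and 4.59 FPKM in homozygous mice, a fall of 1.36 in homozygous against wildtype mice (adjusted p = 0.0376 from limma). The call is as close to the threshold as that of Gdf15: it was kept only without mouse 41 and had adjusted p-values of 0.206 without mouse 39, 0.185 without mouse 37, 0.197 without mouse 40, 0.193 without mouse 47 and 0.0573 without mouse 49. Pgpep1 did not share the spread of Gdf15 within wildtype mice, since it was lower in mouse 41 than in mouse 39. Lrrc25, the next gene on the other side at 7.91 kb, was at -0.14 (adjusted p = 0.829), and the median change of the 31 neighbours was -0.16.

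**Figure D5:**
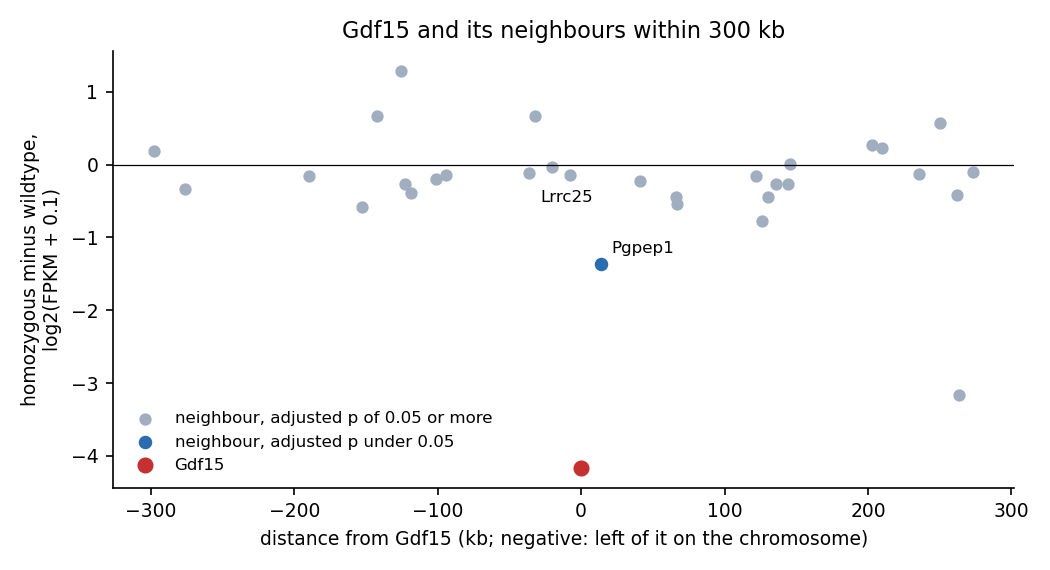
Change in homozygous against wildtype mice on the log2(FPKM + 0.1) scale for the 31 tested genes within 300 kb, by their distance from Gdf15 in kb. Gdf15 lies at -4.17 and Pgpep1, 14 kb to the right, at -1.36; the point near 263 kb at -3.16 is a small nucleolar RNA gene that did not pass the test (adjusted p = 0.583).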

How the data were processed

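RNA of 6 irradiated mouse prostates was measured, and groups follow the submitters' genotype labels. The authors prepared stranded mRNA libraries, sequenced read pairs, aligned them to GRCm38 (mm10) with HISAT and deposited gene-level FPKM made with Cufflinks and Cuffnorm, per the labels. FPKM are scaled for length and mapped fragments, and depth is known only relative to mouse 39. The versions of these tools are not given in the sources used here.

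FPKM were tested as log2(FPKM + 0.1), so folds of low genes are understated, over the 13818 genes with a mean of at least 1 FPKM. A model of the 3 genotypes was fitted to all genes with limma 3.58.1 in R 4.3.3 (eBayes with an intensity trend, Benjamini-Hochberg adjustment, threshold 0.05), with contrasts for pairs, the midpoint and, in a second fit, a slope per allele. The exact permutation test used the same slope. Whether the mice of a genotype share litters is not labelled, and p-values measure the spread between these mice. The fit was tested on simulated data. Python 3.11.15 with pandas 2.3.3, numpy 2.4.6 and scipy 1.17.1 was used for the rest, and matplotlib 3.10.9 for figures.

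Gdf15 and the lists were chosen with earlier results of these data known. The genes named are up to 6 a list with the largest change in homozygous against wildtype mice and members at 0 in all mice, the 10 most correlated and 5 nearest genes, and the 5 largest falls at similar mean (predicted and RIKEN identifiers were counted, not named). Trp53, Gfral, Ddit3, Cebpb, Nupr1, Lrrc25, Il18 and the genes said to be chosen after their values were seen are named beside that rule. For symbols with several identifiers the one with the highest mean was used, except among the nearest profiles. Positions come from GENCODE M21 and promoter windows from RefSeq (GRCm38.p6). Alternatives were a pseudocount of 1 or 0.01, no filter or a mean of 5 FPKM, quantile or median scaling, no intensity trend, robust moderation, each gene alone, and leaving out each mouse. Leaving out each mouse for the place among genes of similar mean was added after seeing the data.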

Additional observations from a re-analysis of the deposited data

How the results depend on the processing

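Gdf15 kept its direction in every pair of genotypes, in the slope and above the log2 midpoint under all 15 alternatives tried for each. Its fall in homozygous against wildtype mice and its slope per allele were no longer called with no filter on low values (-4.17, adjusted p = 0.118, and -2.08, adjusted p = 0.106, from limma), without the intensity trend (-4.17, adjusted p = 0.0828, and -2.08, adjusted p = 0.0574) and with each gene alone (-4.22, adjusted p = 0.335, and -2.11, adjusted p = 0.235). The 6 other settings kept both calls. Leaving out 1 mouse gave -4.67 to -3.67 and -2.38 to -1.95. The distance above the midpoint was 0.44 to 0.62 under the other settings and 0.08 to 1.10 with 1 mouse left out. The genes called lower and higher numbered 3 and 1 with no filter, 20 and 3 without the trend and 0 and 0 with each gene alone, where a residual of 3 degrees of freedom stands alone, 22 and 20 with quantile normalization and 35 higher with robust moderation, against 36 and 17. Leaving out 1 mouse gave 3 to 101 lower and 1 to 67 higher. The p53 targets called lower numbered 3, 10 and 0 under the first 3 settings and 1 to 13 with 1 mouse left out, and the stress response genes 0 with each gene alone and 0 to 1 with 1 mouse left out. Pgpep1 was not called under the same 3 settings, which leaves 0 neighbours, and 0 to 1 were called with 1 mouse left out. The place of Gdf15 among genes of similar mean was 4 in the band of 0.5 to 2 times its mean and 1 with a pseudocount of 1, and 1 to 4 with 1 mouse left out. The causes of these changes were not tested. No paired analysis was possible because the genotypes share no replicate numbers. With 2 mice per genotype and no fragment counts, counting error and differences between mice cannot be separated.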

Other observations

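Gdf15 was 1 of 89 genes at least 1.9-fold higher in wildtype mouse 41 than in mouse 39 and in heterozygous mouse 37 than in mouse 40. Those named here were chosen after their values were seen, with no test of any group among them. Immunoglobulin segments made up 16 of the 89, and their share of all tested genes was not counted. An example is Igkv12-44 at 0.383 and 26.5 FPKM in mice 39 and 41 and at 5.61 and 2.37 FPKM in mice 37 and 40. Some segments, such as Igkv4-55 and Igkv4-63, were at 0 in mouse 39, so the pseudocount sets their fold. Ren1, which encodes renin, was at 28.4 and 4614 FPKM in mice 39 and 41 and at 1610 and 132 FPKM in mice 37 and 40. Pnliprp1, a pancreatic lipase relative, was at 8.45 and 146 FPKM, and at 46.1 and 8.46 FPKM. The metallothionein gene Mt3 was at 14.2 and 138 FPKM, and at 78.6 and 18.5 FPKM. Adm2, a secreted peptide of the calcitonin family, was at 1.11 and 9.44 FPKM, and at 3.54 and 1.49 FPKM. The seminal vesicle genes Svs1, Svs3a and Svs6 were also among them, with Svs6 at 28.6 and 1021 FPKM, and at 903 and 392 FPKM. Whether these genes and Gdf15 share a source was not tested.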
